A study of Mus musculus with 19 samples.

Results

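Collagen genes were followed in primary sarcomas of mice with and without lymphocytes. The set was every row of the expression table whose mouse symbol has the form of Col, a type number, the letter a and a chain number, which gave 44 of 48795 rows. By the kind of assembly the chains form, the set held 11 fibrillar, 6 basement membrane network, 9 fibril-associated, 6 beaded filament, 3 short-chain, 2 multiplexin and 4 transmembrane collagens, and 3 anchoring fibril or other collagens. Bulk RNA sequencing was done on 19 primary p53/MCA sarcomas, each library from 1 tumor. Of these, 11 grew in Rag2-/- mice, which have no mature T or B cells, and 8 in Rag2+/- littermates, which have both. All mice were 6 to 10 weeks old when an adenovirus carrying Cas9 and a guide RNA against Trp53 (Adeno-sgp53-Cas9) was injected into the gastrocnemius muscle, followed by 300 μg of the carcinogen 3-methylcholanthrene (MCA) in sesame oil. All 19 tumors were untreated and were taken at about 70 to 150 mm3. The Trp53 edit is made only in cells the virus reaches, so a tumor holds edited cells together with host stroma and the muscle around it, and in such bulk samples fewer cells of a type and less RNA per cell cannot be told apart.

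Collagens are chains that wind around each other into a triple helix, with like or unlike chains, and are the main protein of connective tissue. Fibrillar types I, III and V assemble into the banded fibers that give tissue its strength, type IV forms the sheet under vessels, nerves and muscle fibers, and type VI forms fine beaded filaments between the cell surface and the matrix. In skeletal muscle and in sarcomas of soft tissue, fibroblasts and other mesenchymal cells are the known main source of the fibrillar chains.

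The values are log2 of the normalized FPKM (fragments per kilobase of transcript, scaled to depth) after adding 0.1, so -3.32 is the lowest value a gene can have, and levels of different genes can be compared per length. The depth estimated from the steps between low values was about 24900000 to 33800000 fragments in 18 tumors and 5250000 in the Rag2-/- tumor S41. The row of Rag2 covers the whole gene and cannot show the deleted part alone. Its log2 value ranged from -2.05 to 0.36 (median -0.16) in Rag2-/- and from -2.33 to -0.57 (median -1.13) in Rag2+/- tumors. The T cell receptor gene Cd3e was at -3.32 in all 11 Rag2-/- tumors and between -0.61 and 2.90 in the 8 Rag2+/- tumors, so the genotype labels were checked on a lymphocyte gene and not on Rag2. S51, a Rag2-/- tumor, stood apart from the other 10 of its genotype in collagen and muscle genes, and results that rest on it are given with and without it.

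The stretch of 150 bases before the start of transcription was read for 4 of the 12 most abundant collagen genes. Of the 12, 10 had a window in the RefSeq table used, and in these 4 it held no annotated exon. They are shown as the upstream sequence of genes among the most abundant of the set. Sequences are from RefSeq on GRCm38.p6, written 5′ to 3′ on the strand of the gene, with the last base next to the start, and capitals mark a match on either strand to the letters TATAAA, the letters CCAAT or the letters GGGCGG.
Col3a1, chr1:45311388-45311537, plus strand: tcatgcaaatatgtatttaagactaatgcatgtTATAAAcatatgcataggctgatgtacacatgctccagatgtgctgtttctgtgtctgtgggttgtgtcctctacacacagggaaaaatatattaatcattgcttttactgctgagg
Col5a1, chr2:27886275-27886424, plus strand: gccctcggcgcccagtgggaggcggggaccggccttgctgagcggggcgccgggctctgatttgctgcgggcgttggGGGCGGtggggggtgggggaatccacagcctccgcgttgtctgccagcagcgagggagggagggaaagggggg
Col6a2, chr10:76623631-76623780, minus strand: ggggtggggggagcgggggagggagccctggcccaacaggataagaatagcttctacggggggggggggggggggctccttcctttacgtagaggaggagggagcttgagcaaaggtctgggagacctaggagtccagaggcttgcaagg
Col6a3, chr1:90843972-90844121, minus strand: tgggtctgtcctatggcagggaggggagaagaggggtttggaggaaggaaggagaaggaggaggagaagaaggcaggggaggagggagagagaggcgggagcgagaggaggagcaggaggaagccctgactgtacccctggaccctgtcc
The Col3a1 stretch held 37.3% G and C and 1 TATAAA whose first base lay 117 bases before the start. The Col5a1 stretch held 74.7% G and C and 1 GGGCGG, 73 bases before the start. Neither Col6a2 (64.7% G and C) nor Col6a3 (62.7%) held a match to the 3 motifs. Of 32851 mouse promoters of the same length, 7.57% held TATAAA or its reverse TTTATA, 24.5% CCAAT or ATTGG and 28.6% GGGCGG or CCGCCC, and the median content of G and C was 54%. A match is a description of letters and not a site that was tested. RefSeq lists 2 starts for Col6a2, and the second was used.

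3 fibrillar chains made up most of the collagen RNA. Col3a1, the chain of type III collagen, had a mean of 10.22 on the log2 scale over the 19 tumors and was gene number 33 of all genes by level. Col1a2 followed at 9.58 (number 55) and Col1a1 at 9.42 (number 73), both chains of type I collagen. Col3a1 was above Col1a2 in 19 of 19 tumors, by 0.64 ± 0.38 (SD of the difference, log2), whereas Col1a2 and Col1a1 differed by 0.16 ± 0.20, within that spread. The next gene, Col6a1, was 1.91 ± 0.31 below Col1a1 and lower in 19 of 19 tumors. From Col6a1 down to Col5a1 no neighbouring pair in the order of levels (Col6a1, Col6a2, Col4a1, Col5a2, Col6a3, Col4a2, Col5a1) differed by more than the SD of its difference. Col18a1 came after these at 5.67, below Col5a1 in 17 of 19 tumors by 0.78 ± 0.52.

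Summed on the linear FPKM scale, the 44 collagen genes took 0.94% ± 0.47 (SD, n = 19) of all FPKM, from 0.131% in S51 to 1.66% in the Rag2+/- tumor S55. The share was 1.09% ± 0.37 (SD, n = 11) in Rag2-/- and 0.72% ± 0.52 (SD, n = 8) in Rag2+/- tumors. FPKM shares are parts of a fixed whole that muscle transcripts also fill, which matters for the tumors rich in muscle RNA described below. Within the collagen total the makeup was steadier. Fibrillar chains held 76.2% ± 2.5 (SD, n = 19) of it, with the lowest share, 70.3%, in S46 and the highest, 79.6%, in S55. Beaded filament chains held 12.2%, basement membrane chains 6.33%, fibril-associated chains 2.12%, multiplexins 2.07% and short-chain collagens 0.91%. Col1a1, Col1a2 and Col3a1 together held 69.2% (63.2% to 72.9%).

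**Figure D1:**
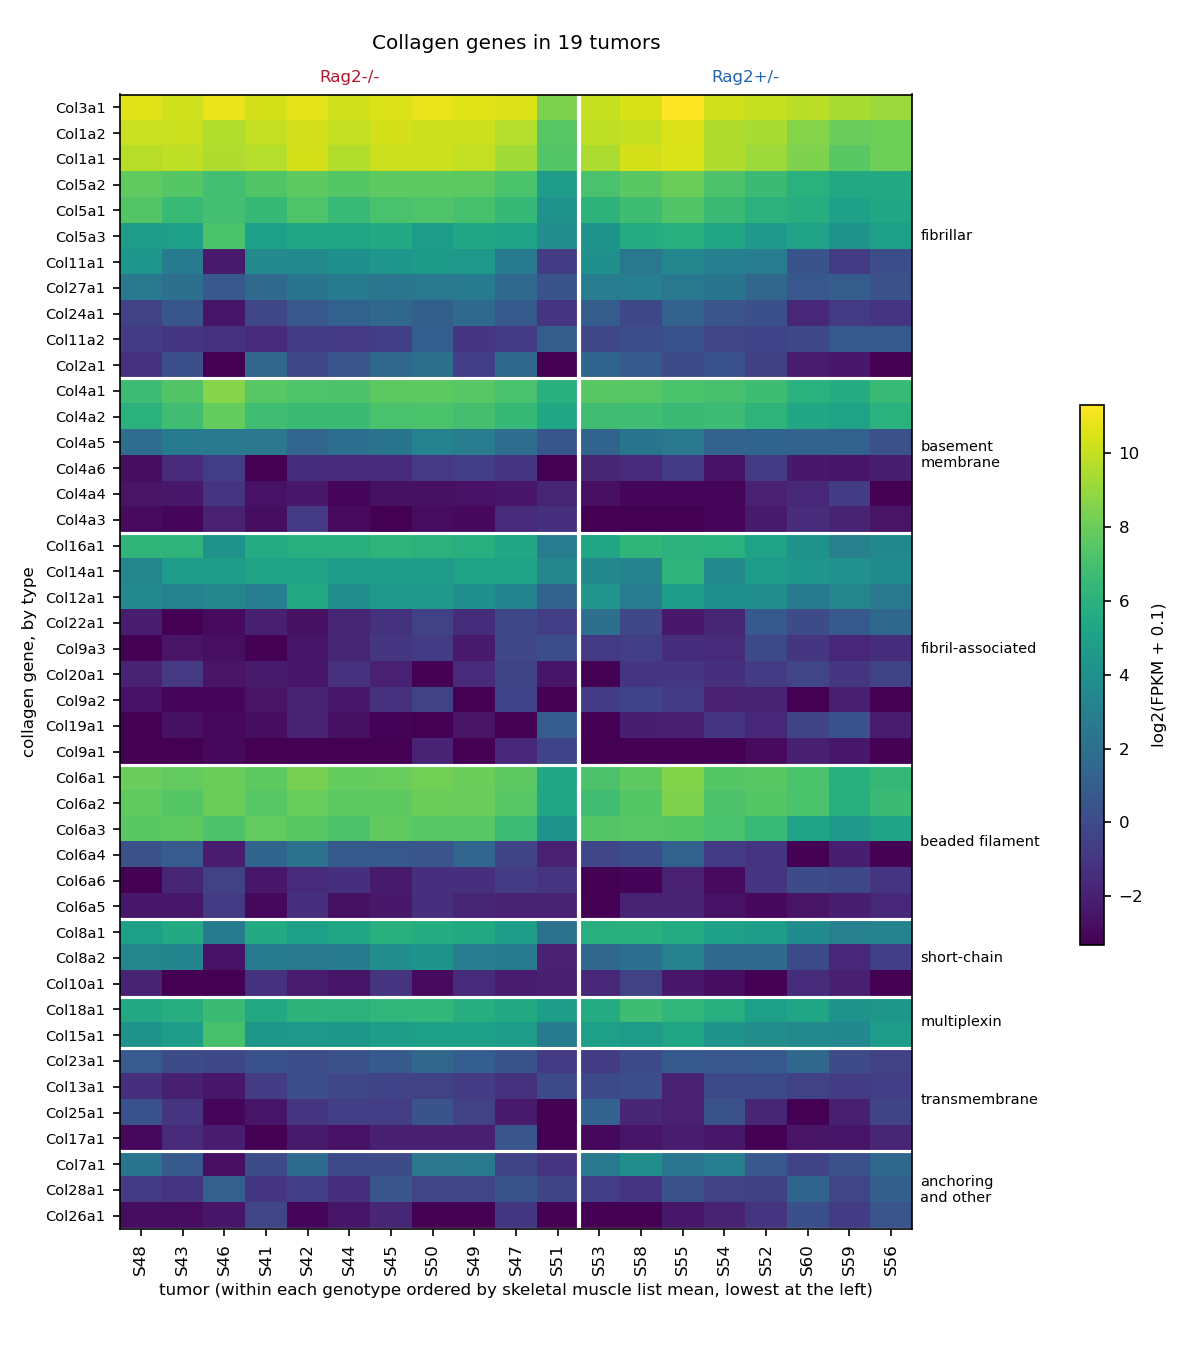
Log2 level of the 44 collagen genes (rows, grouped by type) in each of the 19 tumors (columns, Rag2-/- and then Rag2+/-), each genotype ordered from low to high skeletal muscle RNA, with color giving log2(FPKM + 0.1) from dark (low) to yellow (high). The abundant fibrillar, type IV and type VI rows are bright in nearly every tumor, S51 is the darkest Rag2-/- column in those rows, and 17 of the 44 genes reach the lowest possible value in at least 1 tumor.

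Among the fibrillar collagens, the most abundant members had overlapping ranges in the 2 genotypes. Col3a1 ranged from 8.41 to 10.87 (median 10.54, log2 level) in Rag2-/- tumors and from 9.08 to 11.30 (median 10.03) in Rag2+/- tumors. The lowest value of all was in S51, a Rag2-/- tumor, and the highest in S55, a Rag2+/- tumor, and the ranges overlapped between them. Col1a2 ranged from 7.52 to 10.38 (median 10.06) and from 7.94 to 10.54 (median 9.49). Col1a1 ranged from 7.37 to 10.33 (median 9.73) and from 7.55 to 10.49 (median 9.31). In both type I genes S51 was again lowest, the Rag2+/- tumor S59 was the lowest of its genotype, and S55 was highest. The type V chains, which set the width of type I fibers, lay lower. Col5a2 had levels of 4.70 to 7.71 (median 7.47) in Rag2-/- and 5.49 to 8.02 (median 6.85) in Rag2+/- tumors. Col5a1 had levels of 4.16 to 7.41 (median 6.91) and 5.07 to 7.31 (median 6.10). The genotypes overlapped over nearly their whole ranges in both genes. Col5a3, the rarer type V chain, had a mean of 5.13 and its highest level, 7.17, in S46.

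Type XI collagen, which starts fibrils in cartilage, differed most between tumors. Col11a1 ranged from -2.29 in S46 to 4.63 in S50 among Rag2-/- tumors (median 3.60) and from -0.79 in S59 to 4.03 in S53 among Rag2+/- tumors (median 2.70). Its SD within genotype was 2.08, larger than that of 98.4% of all genes tested. Both genotypes held tumors near or below 0 and tumors above 4. Its partner chain Col11a2 stayed between -1.52 and 1.07 in Rag2-/- (median -0.83) and between -0.37 and 0.82 in Rag2+/- tumors (median -0.02). It was above Col11a1 in 4 of 19 tumors, and the log2 difference Col11a2 minus Col11a1 ran from -5.48 in S49 to 1.74 in S51. The cartilage marker Matn1 was below 0 in 19 of 19 tumors and Acan in 15 of 19, with Acan at 3.66 in S48, 2.61 in S50, 1.44 in S42 and 0.55 in S55, while Sox9 and Comp, which other mesenchymal cells also express, had means of 2.54 and 2.79. Of the remaining fibrillar members, Col27a1 had a mean of 1.90 and Col24a1 of 0.15, and Col2a1, the main cartilage collagen, ranged from -3.32 to 2.09.

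Type IV collagen, the network of basement membranes, was carried by Col4a1 and Col4a2. Col4a1 ranged from 5.98 to 8.67 (median 7.34) in Rag2-/- and from 5.72 to 7.56 (median 6.91) in Rag2+/- tumors. Col4a2 ranged from 5.43 to 7.83 (median 6.81) and from 5.13 to 6.83 (median 6.40). For both genes S46 was the highest of all tumors, S51 the lowest Rag2-/- tumor and S59 the lowest Rag2+/- tumor. Their SDs within genotype, 0.66 and 0.64, were among the smallest of the abundant collagens, with Col3a1 at 0.67. Col4a5, a chain of the networks of kidney, muscle and other tissues, was much lower, from 0.61 to 3.15 (median 2.33) in Rag2-/- and from 0.33 to 2.54 (median 1.37) in Rag2+/- tumors. The kidney-type chains Col4a3 and Col4a4 and the chain Col4a6 stayed below -0.60 in every tumor. In Col4a3 the level ranged from -3.32 to -0.84 in Rag2-/- and from -3.32 to -1.46 in Rag2+/- tumors. Col4a4 ranged from -3.06 to -1.10 and from -3.32 to -0.78, and Col4a6 from -3.32 to -0.63 and from -2.62 to -0.76. These 3 genes had a median of 7 to 38 estimated fragments a tumor, so their values rest on few reads.

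Type VI collagen followed the fibrillar chains. Col6a1 ranged from 5.47 to 8.28 (median 7.88) in Rag2-/- and from 5.96 to 8.58 (median 7.33) in Rag2+/- tumors. Col6a2 ranged from 5.45 to 8.02 (median 7.65) and from 5.92 to 8.48 (median 7.20). Col6a3, the longest chain of the type, had levels of 4.21 to 7.77 (median 7.49) and 4.51 to 7.49 (median 6.81). In all 3 genes S51 and S59 were the lowest of their genotypes. The later chains were low, with Col6a4 between -3.32 and 2.17, Col6a5 between -3.32 and -0.77 and Col6a6 between -3.32 and 0.10.

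The remaining types held fewer abundant members. Col18a1, a multiplexin of vessel basement membranes whose end piece is endostatin, ranged from 4.79 to 6.63 (median 5.81) in Rag2-/- and from 4.15 to 6.78 (median 5.45) in Rag2+/- tumors. Col16a1, which sits at the edge of fibrils, ranged from 2.83 to 6.26 (median 5.85) and from 3.06 to 6.22 (median 5.18). The ranges of both genes lay over each other in the genotypes. Col8a1, a short-chain collagen of vessel walls, ranged from 2.18 to 5.97 (median 5.33) and from 3.07 to 5.96 (median 4.95). Its partner Col8a2 ranged from -2.60 in S46 to 4.23 in S50 (median 2.78) and from -1.70 in S59 to 3.13 in S55 (median 1.58), with an SD within genotype of 2.01 that exceeded that of 98.0% of all genes tested. S46 and S51 were below every Rag2+/- tumor in Col8a2, and the other 9 Rag2-/- tumors lay at 2.56 or above. Col7a1, which forms the fibrils that anchor skin, ranged from -2.71 in S46 to 2.51 in S49 (median 0.00) in Rag2-/- and from -0.30 in S60 to 3.90 in S58 (median 2.02) in Rag2+/- tumors. It was singled out after its values were seen, as the only tested collagen with a lower mean in Rag2-/- tumors. Col15a1 (mean 4.56), Col14a1 (4.46) and Col12a1 (3.63), which lie on fibrils or basement membranes, were the other members with a mean above 3. The short-chain and fibril-associated collagens of cartilage were close to the lowest value. Col9a2 ranged from -3.32 to -0.36 in Rag2-/- and from -3.32 to -0.40 in Rag2+/- tumors, and Col9a3 from -3.32 to 0.16 and from -1.62 to -0.10. Col9a1 was at the lowest value in the median tumor of both genotypes, and Col10a1 ranged from -3.32 to -0.52. Col13a1, Col17a1, Col19a1, Col20a1, Col22a1, Col25a1, Col26a1 and Col28a1 had means between -2.32 and -0.21, and Col23a1 a mean of 0.37.

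**Figure D2:**
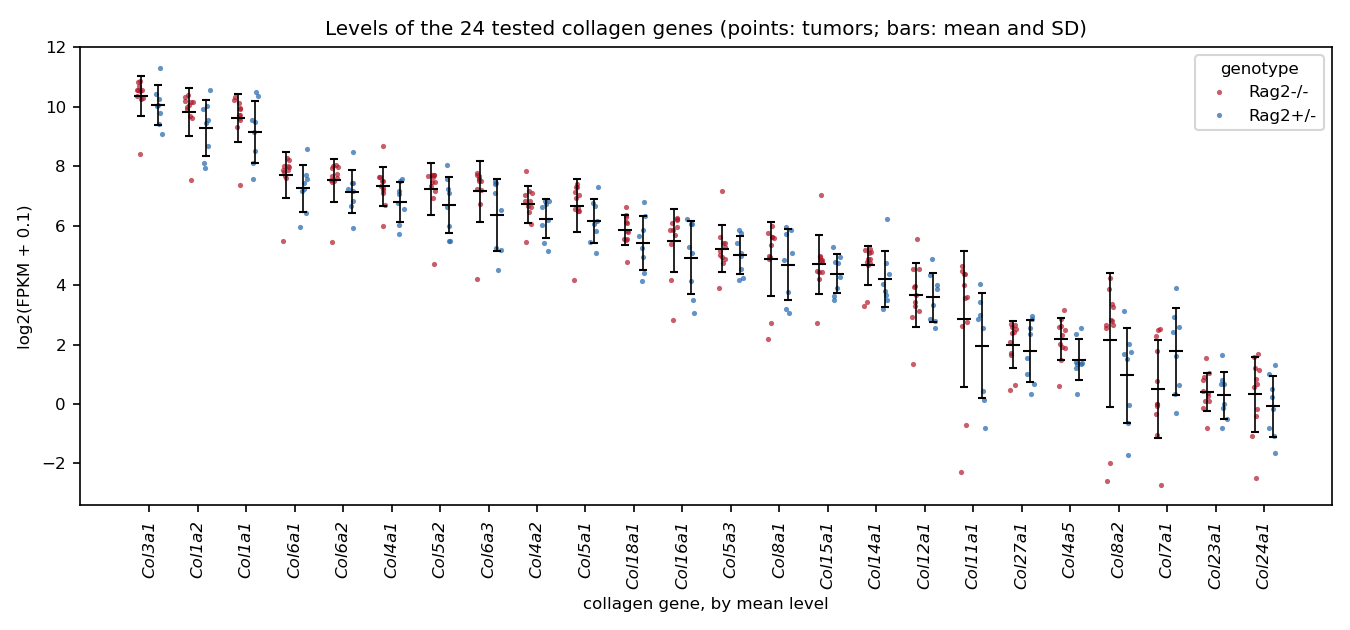
Log2 level in each tumor (points, by genotype) of the 24 tested collagen genes in the order of their mean, with bars at the mean and SD of each genotype. The points of the 2 genotypes overlap in every gene, and Col11a1 and Col8a2 have the widest spread.

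The comparison of Rag2-/- with Rag2+/- tumors asks whether collagen expression differs in sarcomas that grew without lymphocytes. It was made with limma over the 12826 genes with a mean log2 value above 0, with Benjamini-Hochberg adjustment over all of them. Of the 44 collagens, 24 passed this filter. None of the 24 reached an adjusted p under 0.05, beside 0.0312% of all genes tested (4 genes, all lower in Rag2-/- tumors). At an unadjusted p under 0.05, 1 of 24 collagens was called, Col4a5, beside 16.3% of all genes tested (6.74% higher and 9.56% lower in Rag2-/-). The collagen share is below that background. No collagen had groups that did not overlap, beside 0.0156% of all genes tested.

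The fitted differences, Rag2-/- minus Rag2+/-, were above 0 for 23 of the 24 tested collagens (95.8%) with a median of 0.46, against 56.2% and a median of 0.06 over all genes tested. The collagens vary together across tumors, so these 24 signs are not 24 separate observations, and none of the differences passed the adjusted threshold. Col3a1 differed by 0.31 ± 0.31 (SE, log2), with a 95% interval of -0.32 to 0.95 and an adjusted limma p of 0.536. Col1a1 differed by 0.47 ± 0.40 (adjusted p = 0.484) and Col1a2 by 0.55 ± 0.38 (adjusted p = 0.411). For all 3 abundant chains the interval includes 0 and also a difference of 0.95. Col6a3 differed by 0.79 ± 0.48 with an adjusted p of 0.369, Col6a1 by 0.45 ± 0.34 with 0.446 and Col6a2 by 0.39 ± 0.32 with 0.475. Col5a2 differed by 0.53 ± 0.40 (adjusted p = 0.438) and Col5a1 by 0.51 ± 0.37 (adjusted p = 0.426). Each of these 8 differences was less than 2 times its standard error.

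For the basement membrane chains Col4a1 and Col4a2 the differences were 0.52 ± 0.29 (adjusted p = 0.344) and 0.50 ± 0.28 (adjusted p = 0.345). Col4a5 differed by 0.68 ± 0.32, with a 95% interval of 0.02 to 1.34, an unadjusted p of 0.0428 and an adjusted p of 0.305. Its groups overlapped widely, with 7 of 11 Rag2-/- tumors inside the Rag2+/- range and 7 of 8 Rag2+/- tumors inside the Rag2-/- range. Col18a1 differed by 0.44 ± 0.31 (adjusted p = 0.416) and Col16a1 by 0.57 ± 0.49 (adjusted p = 0.491). The most variable genes gave the widest errors, with Col11a1 at 0.90 ± 0.91, Col8a2 at 1.19 ± 0.88 and Col8a1 at 0.19 ± 0.54, and all 3 had adjusted p values of 0.434 or more. Col7a1 was the exception in sign, at -1.25 ± 0.69 (unadjusted p = 0.0832, adjusted p = 0.337).

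One tumor decided how many collagens passed the unadjusted threshold. Without S51, 11 of 24 collagens had an unadjusted p under 0.05, beside 32.4% of all genes. None had an adjusted p under 0.05 beside 0.0545% of all genes, and the lowest adjusted limma p was 0.0941 (Col4a5, difference 0.84). The median collagen difference was then 0.61, the highest of the 19 fits that left out 1 tumor, and the lowest was 0.28, without S59. Without S51, Col6a3 differed by 1.08 and Col5a1 by 0.76. Leaving out any other single tumor gave 0 to 2 collagens, beside 7.14% (without S56) to 25.1% (without S53) of all genes. The Col4a5 call itself was lost in 12 of the 19 fits that left out 1 tumor. Without S41, S43, S45, S52, S54, S56 or S59 there were 0 collagens, without S46 only Col8a2, without S49, S50 or S60 only Col7a1, and without S53 only Col4a1. Leaving out S55 or S58 gave 2, Col4a5 among them. In the 15 tumors that the study used for its own comparison of the genotypes (8 and 7, without S41, S46, S51 and S56), 10 of 26 tested collagens had an unadjusted p under 0.05 beside 22.1% of all genes, and none an adjusted one beside 0.116%.

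**Figure D3:**
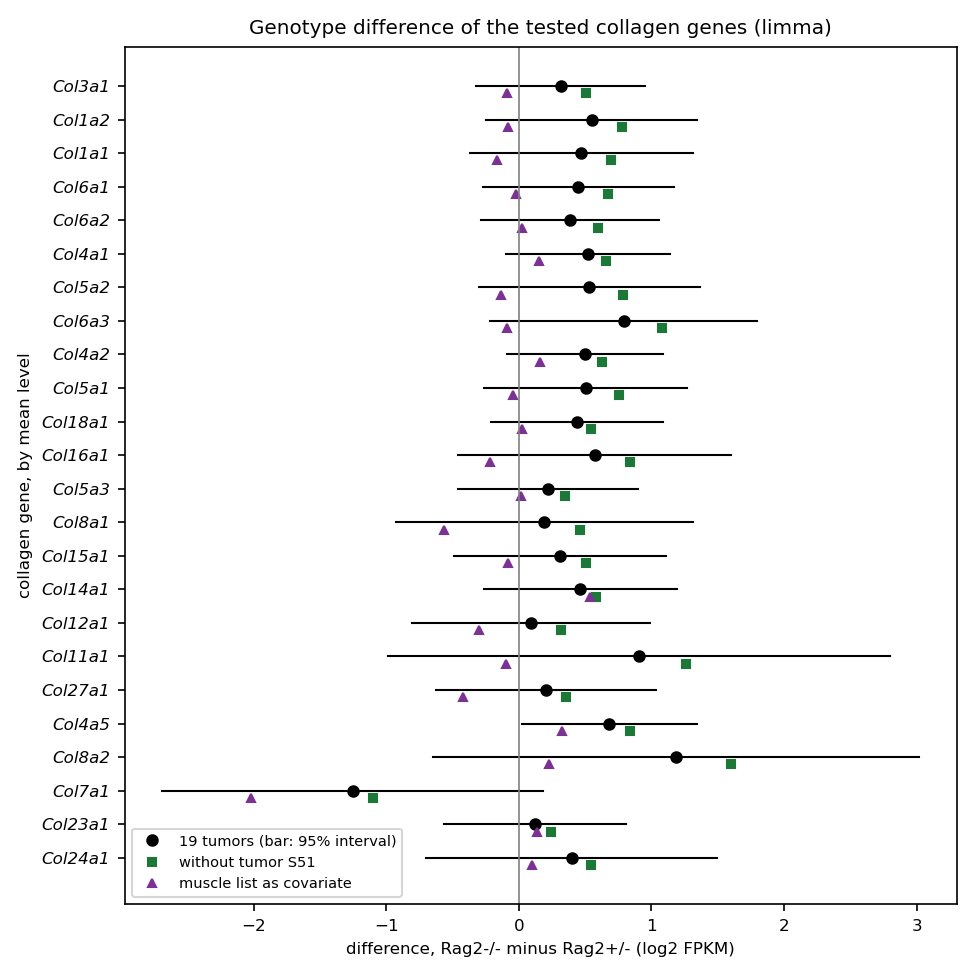
Difference in mean log2 level, Rag2-/- minus Rag2+/-, with its 95% limma interval for the 24 tested collagens in all 19 tumors (circles), without S51 (squares) and with the mean of the muscle list in the model (triangles). In the 19 tumors 23 of 24 points lie above 0 and all intervals but that of Col4a5 cross 0, and with the muscle list in the model the median moves to -0.06.

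The 20 collagens below the filter were looked at in a fit of all 48795 genes. None had an adjusted p under 0.05 (0.0533% of all genes did). At an unadjusted p under 0.05 there were 4 of 44 collagens beside 5.85% of all genes, Col4a5 and 3 low genes that were singled out after their values were seen. Col22a1, found where muscle meets tendon, had log2 levels from -3.32 to -0.14 (median -1.81) in Rag2-/- and from -2.30 to 2.09 (median 0.39) in Rag2+/- tumors. The difference was -1.83 ± 0.58 (p = 0.00559, adjusted p = 0.826 in limma). The groups overlapped, with the Rag2+/- tumors S54 (-1.83), S55 (-2.30) and S58 (-0.18) below the highest Rag2-/- tumor, S47 (-0.14). Col6a4 had levels of -2.22 to 2.17 (median 0.68) and -3.32 to 1.21 (median -0.93), a difference of 1.52 ± 0.68 (p = 0.0380, adjusted p = 0.838). Col11a2 differed by -0.71 ± 0.33 (p = 0.0426, adjusted p = 0.842).

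Skeletal muscle RNA varied widely between the tumors and moved with the collagens. The 15 genes of a list of skeletal muscle markers had a mean log2 level of 7.57 ± 2.03 (SD, n = 11) in Rag2-/- and 9.76 ± 2.42 (SD, n = 8) in Rag2+/- tumors. Of the 15, 11 were lower in Rag2-/- tumors at an unadjusted p under 0.05, beside 9.56% of all genes, and none at an adjusted one, beside 0.0312%. Acta1, the actin of muscle fibers, had means of 10.10 and 12.52, and Tnnt3, a fast-fiber troponin, of 9.63 and 11.85. None of the 15 was at the lowest value in most tumors, and their summed FPKM ran from 393 to 125650 in Rag2-/- and from 2138 to 186321 in Rag2+/- tumors.

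The tumors fell into 2 sets by this list mean. In 5 tumors (S51 of Rag2-/-, and S52, S56, S59 and S60 of Rag2+/-) it was 11.4 to 12.5, and in the other 14 (10 Rag2-/- and 4 Rag2+/-) it was 3.86 to 9.47. In the 5, 15 to 24 of the 24 tested collagens were below their mean over all tumors, the median deviation of a collagen from its mean was between -1.98 and -0.23, and collagens took 0.131% to 0.545% of FPKM. In the 14, 0 to 10 collagens were below their mean, the median deviation was between 0.07 and 0.93, and collagens took 0.823% to 1.66% of FPKM. The 2 sets did not overlap in any of these measures. The sets were formed after the data were seen, from muscle genes and not from collagens.

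**Figure D4:**
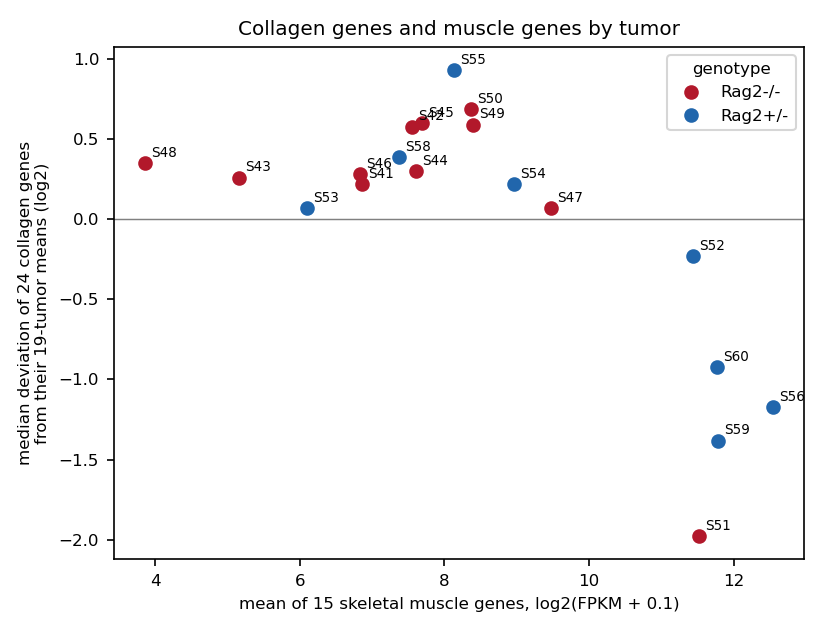
Collagen level of each tumor (median deviation of the 24 tested collagens from their means, log2) against its mean log2 level of 15 skeletal muscle markers, with points marked by genotype. The 5 tumors with a muscle mean of 11.4 or above all lie below 0 on the collagen axis and the other 14 all lie above 0, from 0.07 to 0.93.

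Muscle was not the only cell type whose markers were high in the 5 tumors. All 7 genes of the Schwann cell list, markers of the glia that wrap nerve fibers, had a higher mean in the 5 than in the 14. The Schwann cell list mean was 1.94 in S51, 2.0 in S52, 4.0 in S56, 2.75 in S59 and 3.94 in S60, against -0.35 to 2.51 in the 14 (median 0.69), so that 3 of the 5 were above all of the 14. Its summed FPKM ran from 80.6 to 321 in the 5 and from 32.7 to 154 in the 14. All 5 adipocyte genes also had a higher mean in the 5, where the adipocyte list mean was 5.80 in S51, 4.37 in S59 and 4.42 in S60 but 0.25 in S52 and 0.72 in S56. In the 14 the adipocyte list ran from -1.88 to 9.05 with a median of -0.41, and its summed FPKM from 7.20 to 5453, against 65.6 to 543 in the 5. No gene of these 2 lists was at the lowest value in most tumors of either set. The fibroblast list ran from 4.87 to 5.66 in the 5 and from 5.09 to 6.42 in the 14, with 3 of its 10 genes higher in the 5, and the macrophage list from 5.47 to 7.15 and from 6.63 to 8.54, with 1 of its 6 genes higher in the 5. The tendon list ran from 2.18 to 4.34 and from -0.75 to 5.19 (median 3.17 and 4.39), with 1 of 5 genes higher. The cartilage list had medians of -1.45 and -0.56, with 2 of 8 genes higher. In most of the 5, 4 of these 8 genes were at the lowest value. Endothelial and mural cell lists had 4 of 10 and 4 of 6 genes higher in the 5, with overlapping ranges. Of the keratinocyte list, mostly at the lowest value, 1 of 5 genes was higher. The part of muscle or of any of these cell types in the low collagen levels of the 5 was not tested.

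A limma fit of each gene on the muscle list mean within genotype was run over all 19 tumors. Since the tumors fall into 2 sets, its slope mixes the step between the sets with the relation inside them, and the slopes inside the larger set are given beside it. Of the 24 collagens, 17 had a slope below 0 at an adjusted p under 0.05 and none above 0, beside 30.5% of all genes below and 24.8% above. The median collagen slope was -0.20 log2 units per log2 unit of muscle list mean, against -0.020 over all genes. Col6a3 had a slope of -0.40 ± 0.07 (SE, adjusted p = 1.19e-04), Col1a2 of -0.29 ± 0.06 (adjusted p = 8.3e-04), Col1a1 of -0.29 ± 0.07 (adjusted p = 0.00170) and Col3a1 of -0.19 ± 0.06 (adjusted p = 0.0113). Col14a1 (0.033 ± 0.083) and Col23a1 (0.0058 ± 0.079) were near 0 over the 19. Inside the 14 tumors with a list mean under 10, the slope of Col6a3 was -0.098 ± 0.047, of Col1a2 -0.020 ± 0.058, of Col1a1 0.010 ± 0.072 and of Col3a1 0.052 ± 0.064 (adjusted p from 0.351 to 0.966). The count changed with the tumors used, and the 14 span a narrower range of the list mean than the 19. Without the muscle-rich S59 the count was 12 of 24, beside 3659 of 12824 genes below 0. Without S58, which is not muscle-rich, the count was also 12 of 24, beside 3680 of 12815. Without S51 it was 8 of 24 beside 24.7% of all genes, in the 15 tumors of the study's comparison it was 7 of 26 beside 25.3%, a share near that background, and among the 14 it was 0 of 26 beside 0.265% of all genes below 0 and 2.85% above, with a median collagen slope of 0.034. In the fit of all genes without a filter, 9 of 44 collagens had a slope below 0 beside 7.04% of all genes, and 2 above 0 beside 6.26%, Col6a6 (0.38 ± 0.08, adjusted p = 0.00322) and Col9a1 (0.25 ± 0.07, adjusted p = 0.0204).

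The genotype difference of the collagens went with the muscle list. With the list mean as a covariate, the median collagen difference was -0.06 in place of 0.46, 10 of 24 differences were above 0, and Col3a1 stood at -0.092, Col1a1 at -0.16 and Col6a3 at -0.089. Among the 14 tumors with a list mean under 10 the median difference of 26 tested collagens was 0.05, with 15 of 26 above 0, against -0.01 over all genes. Col7a1 was the 1 collagen with an unadjusted p under 0.05 in both fits, beside 4.21% and 4.16% of all genes, and none had an adjusted one, beside 0.0156% and 0.00778%. Its difference was -2.02 with the covariate and -2.29 in the 14 tumors (p = 0.0107, adjusted p = 0.962). Since 4 of the 5 muscle-rich tumors are Rag2+/-, genotype and muscle content are only partly separate in these samples.

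Other cell types were checked by lists of marker genes. The filter left 10 of 10 fibroblast, 2 of 8 cartilage, 5 of 5 tendon and 4 of 7 Schwann cell genes to test. It left 4 of 5 adipocyte, 6 of 6 macrophage and 6 of 6 mural cell genes. None of these tested genes passed an unadjusted threshold of 0.05 between the genotypes, beside 16.3% of all genes tested. None passed an adjusted one, beside 0.0312%. The fibroblast list, whose Dcn and Lum are also fibril partners, had a mean of 5.61 ± 0.39 (SD, n = 11) in Rag2-/- and 5.45 ± 0.44 (SD, n = 8) in Rag2+/- tumors, with Dcn at 8.61 and 8.57 and Cd34 at 7.07 and 6.70. The macrophage list was at 7.12 ± 0.54 and 6.76 ± 0.55 (C1qa at 8.99 and 8.62, C1qb at 8.88 and 8.53). The endothelial list was at 3.41 ± 0.51 and 3.69 ± 0.39 (Cdh5 at 4.75 and 5.12). Its member Pecam1, 1 of 10 tested, was the only tested gene of these lists with an unadjusted p under 0.05, at -0.46 (p = 0.0467, adjusted limma p = 0.305). The mural cell list was at 3.11 ± 0.59 and 3.24 ± 0.34 (Acta2 at 7.48 and 7.23, Rgs5 at 4.47 and 5.04). The Schwann cell list was at 1.14 ± 0.92 and 1.98 ± 1.54 (Pmp22 at 5.70 and 5.65, Mbp at 2.5 and 3.59), the cartilage list at -0.64 ± 0.60 and -1.17 ± 0.54, and the tendon list at 3.64 ± 1.65 and 3.85 ± 0.75 (Thbs4 at 7.21 and 7.15, Fmod at 4.05 and 3.97). The adipocyte list was at 1.5 ± 3.69 and 1.17 ± 2.42 (Fabp4 at 5.64 and 6.09, Adipoq at 1.43 and 0.13), and the keratinocyte list, no gene of which passed the filter, at -2.42 ± 0.82 and -2.25 ± 0.61 (Trp63 at -0.68 and 0.85, Krt14 at -2.60 and -2.81). The part of these cells in the collagen differences was not tested.

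S46, a Rag2-/- tumor, had a collagen pattern of its own. Its levels of Col11a1 (-2.29), Col8a2 (-2.60), Col7a1 (-2.71) and Col24a1 (-2.48) were the lowest of all tumors, while those of Col4a1 (8.67), Col4a2 (7.83), Col15a1 (7.03) and Col5a3 (7.17) were the highest. Its basement membrane share of collagen, 11.9%, and its multiplexin share, 4.24%, were also the highest. The adipocyte list had a mean of 9.05 in S46, with Adipoq at 8.68 and Fabp4 at 12, against -1.88 to 6.01 in the other 18 tumors. The tendon markers Thbs4 (1.13) and Tnmd (-2.65) were the lowest there, against 4.18 or more and 1.86 or more elsewhere. The endothelial list mean (4.75, next highest 4.40), the mural cell list mean (4.26, next 3.88) and the macrophage list mean (8.54, next 7.44) were the highest in S46 as well, and the part of these cells in its collagen levels was not tested. S46 was not among the muscle-rich tumors, with a list mean of 6.83. In S47 the epidermal keratins Krt5 (1.49) and Krt14 (1.12) were the highest of all tumors, as was Col17a1, a collagen of epidermal attachment (0.53). Keratin genes were at -3.32 in most other tumors.

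Chains of a mixed helix join in fixed proportions, so partner genes were compared tumor by tumor. Correlations were computed for 8 pairs with both genes above the filter, over 19 tumors after subtracting each genotype mean, with permutation p values adjusted over the 8. All 8 had an adjusted Pearson p between 1.6e-05 and 2.5e-04 and an adjusted Spearman p between 2e-05 and 0.0168, where the smallest unadjusted p that 100000 permutations can give is 1e-05.

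Col4a1 and Col4a2, which lie head to head on chromosome 8 with starts that overlap by 22 bases (GRCm38, chr8:11198423-11312826 and chr8:11312805-11449287), were the closest pair. They had r = 0.987 and rho = 0.982 (each with permutation p = 1e-05, adjusted p = 1.6e-05 and 2e-05), and each was the nearest of 12825 genes to the other. Col4a2 was below Col4a1 in 19 of 19 tumors by 0.59 ± 0.11 (SD, log2), a smaller spread than the 0.66 of Col4a1 itself. Without S46 and S51, the tumors farthest from the median, r was 0.983, and in the 14 tumors with less muscle it was 0.963 with mutual first rank. The offsets of the other head-to-head pairs of type IV genes varied more, at lower levels. Col4a6 was 3.62 ± 0.80 below Col4a5, 1308 bases away on chromosome X, and Col4a4 differed from Col4a3, 71 bases away on chromosome 1, by 0.09 ± 0.65 at levels close to the lowest value.

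Col6a1 and Col6a2, neighbours 85161 bases apart on chromosome 10 (chr10:76708792-76726168 and chr10:76595762-76623630), had r = 0.981 and rho = 0.944, and each was nearest to the other of all genes. Col6a2 was 0.15 ± 0.15 below Col6a1. The pair had r = 0.934 without S51 and S59 and 0.955 in the 14 tumors. Col6a3, the third chain, lies on chromosome 1 (chr1:90765923-90843971) and followed Col6a1 less closely, with r = 0.885 and rho = 0.577 (permutation p = 0.0168), 0.646 without S51 and S59, and 0.246 (permutation p = 0.290) in the 14 tumors. So the relation did not pass the test among the 14 tumors with less muscle RNA. Col6a3 minus Col6a1 ran from -1.99 in S60 to 0.17 in S53.

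Col1a1 (chr11:94936224-94953042) and Col1a2 (chr6:4504814-4541544), which lie on different chromosomes, had r = 0.977 and rho = 0.954, r = 0.946 without S51 and S59, and r = 0.846 (permutation p = 1e-04) in the 14 tumors. Col1a2 was above Col1a1 in 15 of 19 tumors. Type V chains Col5a1 and Col5a2 had r = 0.950, rho = 0.918, r = 0.877 without S51 and S55 and r = 0.749 (permutation p = 0.00487) in the 14 tumors, with Col5a2 higher in 19 of 19 tumors by 0.54 ± 0.28. Type VIII chains Col8a1 and Col8a2 had r = 0.936, rho = 0.772, r = 0.886 without S46 and S51 and r = 0.904 (permutation p = 0.00587) in the 14. Col8a2 was 3.14 ± 1.07 below its partner, so the pair moved together without a fixed ratio. These 3 pairs kept a permutation p under 0.05 in the 14 tumors.

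Pairs of different types were also compared. Col3a1 and Col1a1, whose products share fibers, had r = 0.899, rho = 0.763 and r = 0.814 without S51 and S59, and r = 0.582 (permutation p = 0.0561) in the 14 tumors. Col3a1 was higher in 19 of 19 tumors, by 0.80 ± 0.42, with the largest excess, 1.87, in S59, where Col3a1 made up 44.7% of collagen FPKM against 31.2% on average. Col5a2 and Col3a1, tail to tail 24614 bases apart on chromosome 1, had r = 0.919, rho = 0.746 and r = 0.776 without S51 and S56. Their r was 0.507 (permutation p = 0.149) in the 14 tumors. The Col9a2 and Col9a3 pair was not correlated because both lay below the filter, and differed by -0.53 ± 1.14.

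**Figure D5:**
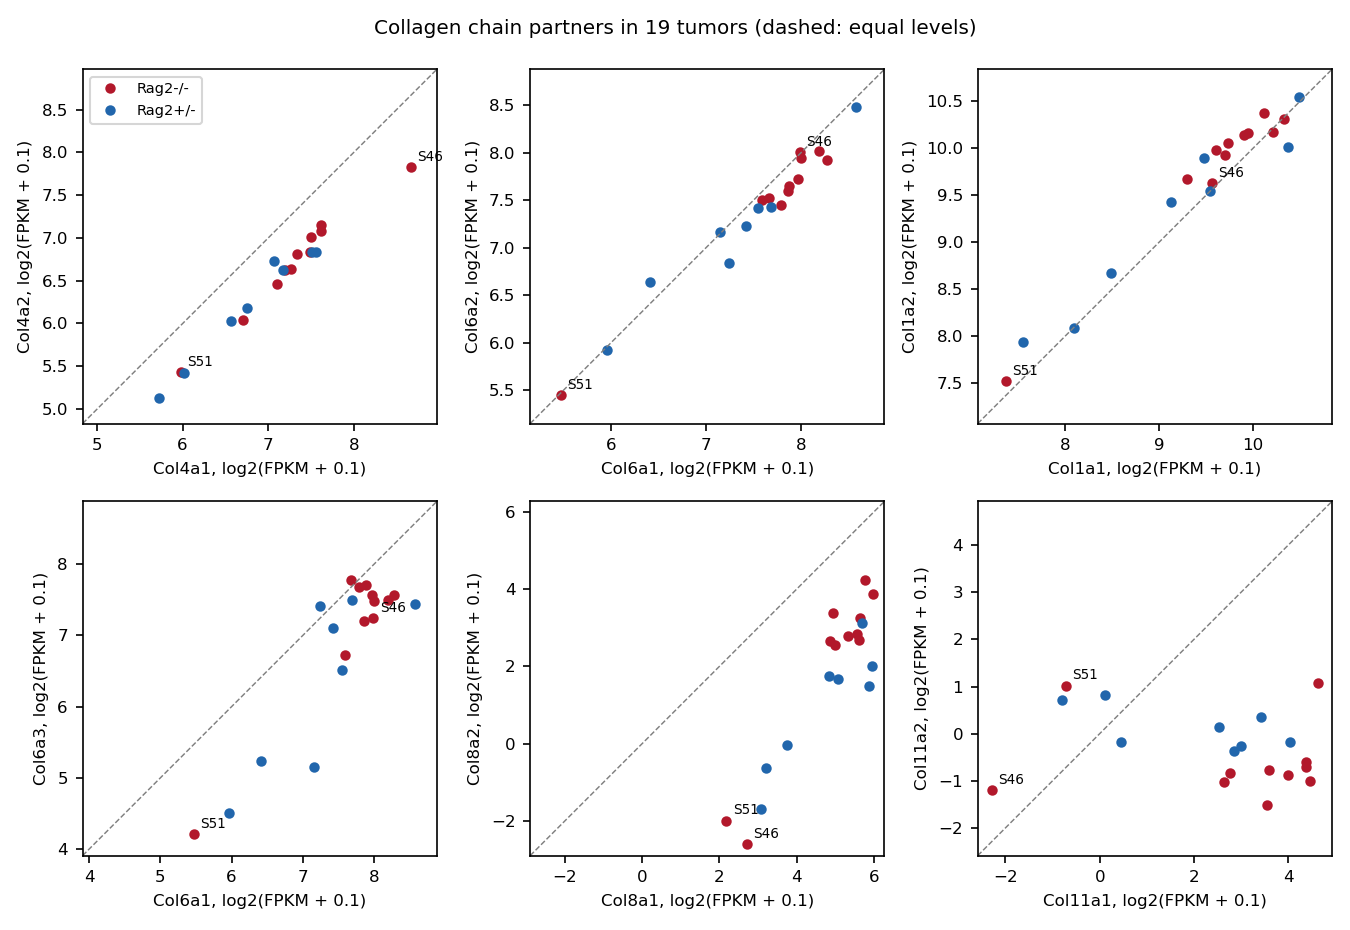
Log2 level of one gene against its partner in each of the 19 tumors for 6 pairs of collagen genes, with points marked by genotype and a dashed line at equal levels. The Col4a1 and Col4a2, Col6a1 and Col6a2, and Col1a1 and Col1a2 points lie close to a line, with r of 0.987, 0.981 and 0.977, and the Col6a3 and Col6a1 points spread more (0.885).

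By the same genotype-centred r over 19 tumors, the gene most like Col1a2 was Col5a2 (0.986), that most like Col3a1 was Col6a1 (0.957), followed by Col5a1 (0.947) and Col6a2 (0.944), and that most like Col1a1 was Col1a2. After Col4a2, the gene most like Col4a1 was Ehd2 (0.918). The genes nearest to the 2 variable collagens were not collagens, Fam92a for Col11a1 (0.970) and Capn6 for Col8a2 (0.963), and Col11a1 and Col8a2 had an r of 0.947 with each other. These values are descriptions over tumors that share the split in muscle content.

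Genes that fold, process, bind and sense collagen were described from 5 lists. Of 63 tested, none had an adjusted p under 0.05 between the genotypes and 3 an unadjusted one, all higher in Rag2-/- tumors (6.74% of all genes were). Differences were above 0 for 52 of 63 (82.5%), with a median of 0.31, against 56.2% and a median of 0.06 over all genes tested. All come from the same 19 tumors, so these 63 signs are not 63 separate observations. The part of muscle RNA in these differences was not tested. In the folding and modification list 0 of 18 passed the unadjusted threshold. Serpinh1, the collagen chaperone of the endoplasmic reticulum, had the highest level, 8.73 ± 0.62 (SD, n = 11) in Rag2-/- and 8.25 ± 0.86 (SD, n = 8) in Rag2+/- tumors. P4hb, a subunit of prolyl hydroxylase, was at 8.32 ± 0.24 and 8.0 ± 0.45, with a difference of 0.33 ± 0.17 (unadjusted p = 0.0643, adjusted limma p = 0.320). Ppib, a proline isomerase, differed by 0.47 ± 0.24 with an adjusted p of 0.323.

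In the list of propeptide processing and crosslinking, 1 of 12 passed the unadjusted threshold, a smaller share than the 16.3% of all genes. Adamts2, which cuts the front propeptide off types I and III, ranged from 2.89 to 4.94 in Rag2-/- and from 2.43 to 4.69 in Rag2+/- tumors and differed by 0.59 ± 0.25 (p = 0.0265, adjusted limma p = 0.301). Pcolce2, an enhancer of the cutting of the tail propeptide, differed by -0.74 ± 0.39 (p = 0.0708, adjusted p = 0.324), whereas its relative Pcolce, the most abundant of the list with a mean of 7.43, differed by 0.20 ± 0.24. Lox, the enzyme that crosslinks fibers, had means of 7.04 and 6.68. Among 13 fibril partners none passed the unadjusted threshold. Sparc, a collagen-binding protein of the matrix, had a mean of 10.23 and differed by 0.42 ± 0.28 (p = 0.153), the proteoglycan Bgn had a mean of 9.41 and differed by 0.59 ± 0.50, and Thbs2 by 0.57 ± 0.47.

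Basement membrane partners had 2 of 11 past the unadjusted threshold, near the 16.3% of all genes that passed it. Agrn, a heparan sulfate proteoglycan, ranged from 2.76 to 5.41 and from 2.0 to 4.92 and differed by 0.90 ± 0.38 (p = 0.0276, adjusted limma p = 0.301). Hspg2, the proteoglycan perlecan, ranged from 4.42 to 6.91 and from 4.23 to 6.33 and differed by 0.72 ± 0.34 (p = 0.0458, adjusted p = 0.305). The genotypes overlapped in both. Nid1, which links laminin and type IV collagen, had means of 6.74 and 6.27. Of 9 collagen receptors and uptake genes none passed. Ctsk, a protease that degrades collagen, differed by 0.52 ± 0.26 (p = 0.0607, adjusted p = 0.317), the receptor kinase Ddr1 by -0.38 ± 0.20 (p = 0.0747, adjusted p = 0.328), and the integrin chain Itgb1 was level at 7.98 and 7.99.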

How the data were processed

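RNA was sequenced from 19 tumors (11 Rag2-/- and 8 Rag2+/-), each 1 library. The authors deposited 1 table of log2 values of upper-quartile normalized FPKM, to which 0.1 had been added. Per the study's methods, reads were aligned with OSA in Array Studio to the mouse genome B38 with Ensembl R86, whereas the submitters' processing notes list Trimmomatic 0.36, STAR, HTSeq and mm10. Which route made the table was not settled here. All columns matched a tumor, and 0 were left over. Ensembl IDs were matched to symbols (48349 of 48795). Since these are normalized values, a count model was not applied. The depth was estimated from the steps between low values of 28162 genes with 1 transcript, of which 74.2% to 90.1% a tumor were whole fragments within 0.05. The genotype test was run in limma (version 3.58.1, R 4.3.3) on every gene averaging over 0 on the log2 scale (intensity trend, Benjamini-Hochberg over all genes, threshold 0.05). Correlations used 100000 two-sided permutations within genotype (Python 3.11.15, scipy 1.17.1). Coordinates are GRCm38, and genes are those of GENCODE M21. Named were the 12 most abundant collagens, those with an unadjusted p under 0.05, both genes of 12 listed pairs, and in each other list the 2 of highest level and, for pathway lists, the 2 of lowest p. Alternatives were other sets of tumors, pseudocounts, filters, normalizations, variance models and covariates. The 15 tumors of the study's own genotype comparison were taken from its source data. Added after seeing the data were the tumors with a muscle list mean under 10, slopes on that mean without the filter or with fewer tumors, and the covariate without the filter. The members and lists were chosen with earlier results of these data known. Col21a1 and protein sequences were not analysed here. Nothing says that tumors came from separate litters or cages, so p-values measure the spread between these tumors.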

Additional observations from a re-analysis of the deposited data

Results flagged for a closer look

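In groups of 4 to 10 tumors, which here means the 8 Rag2+/- tumors, a tumor was set aside for a closer look when its gap to the next tumor, as a part of the whole range, was above 0.526. Chance sets aside about 1 in 20 genes by this measure, and 2 of 44 collagens were. Col13a1, a transmembrane collagen of nerve and muscle junctions, was at -1.96 in S55 and between -0.79 and 0.19 in the other Rag2+/- tumors, with a gap of 0.545 of the range. Col20a1, a fibril-associated collagen, was at -3.32 in S53, the lowest value a gene can have, and between -1.29 and -0.26 in the others, with a gap of 0.662 of the range. Both genes had few estimated fragments, with medians of 42 and 35 a tumor.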

How the results depend on the processing

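No setting gave a collagen an adjusted p under 0.05 between the genotypes (32 settings besides the one reported, lowest adjusted limma p 0.0941). The number with an unadjusted p under 0.05 was 1 of 24 as reported, beside 16.3% of all genes. It was 10 of 26 in the 15 tumors of the study's comparison (22.1% of all genes) and 0 of 24 without S41 (12.2%). Without the filter it was 4 of 44, beside 2855 of 48795 genes, and with the muscle covariate added 4 of 44, beside 1225 of 48795. It was 0 of 18 with a filter at a mean of 2, beside 1676 of 9644 genes. With Xist as a covariate it was 0 of 24, beside 964 of 12826. On leaving out each tumor it was 0 to 11 of 24, beside 7.14% to 32.4%. With the muscle list as a covariate, with or without the filter, the difference changed sign for Col3a1 (-0.092), Col1a2 (-0.081), Col1a1 (-0.16), Col6a1 (-0.021), Col5a2 (-0.13), Col6a3 (-0.089), Col5a1 (-0.046), Col16a1 (-0.22), Col8a1 (-0.57), Col11a1 (-0.094), Col12a1 (-0.30), Col15a1 (-0.081) and Col27a1 (-0.42). In the 14 tumors with a muscle list mean under 10 it changed sign for Col1a1 (-0.13), Col5a2 (-0.0011), Col18a1 (-0.18), Col16a1 (-0.14), Col8a1 (-0.51), Col11a1 (-0.032), Col12a1 (-0.12), Col24a1 (-0.20) and Col27a1 (-0.54), and with Xist for Col8a1 (-0.19), Col12a1 (-0.15) and Col27a1 (-0.050). On leaving out single tumors it changed sign for Col8a1 (-0.037 to 0.46), Col12a1 (-0.10 to 0.32), Col23a1 (-0.036 to 0.31) and Col27a1 (-0.0032 to 0.37). The correlations that no longer passed were those of Col5a2 and Col3a1 within Rag2-/- tumors (r = 0.906, permutation p = 0.0519) and, in the 14 tumors, of Col3a1 and Col1a1 (0.582), Col6a3 and Col6a1 (0.246) and Col5a2 and Col3a1 (0.507). The 17 of 24 slopes on muscle below 0 (30.5% of all genes) became 9 of 44 without the filter (7.04%) and 7 of 26 in the 15 tumors (25.3%). In the 14 they became 0 of 26 (0.265%). On leaving out each tumor the count ran from 8 of 24 without S51 (24.7% of all genes) to 19 of 24 without S46 (4265 of 12842 genes). The causes were not tested. No paired analysis was possible because the labels carry no numbers or litters that link tumors of different genotype. Limits are the lower depth of S41, the few fragments behind collagens with a mean under 0, and the muscle-rich tumors, 4 of 5 of them Rag2+/-.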
